A study of Mus musculus with 3 samples.

Results

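The 8 genes described here are Pcdh20, Nnat, Ndnf, Nptx1, Slitrk6, Penk, Rerg and Tcim, taken from a table of 56833 genes. They were picked by their values: each is among the lowest ratios against the soft or the intermediate library, so the ratios that chose them are given as a description. Gene expression was measured by poly(A)-selected, stranded bulk RNA sequencing of cells from the ankle synovium of mice that carry an Efhd1CreER allele and the Ai9 reporter. CreER is a tamoxifen-dependent Cre recombinase, here tied to Efhd1, and Ai9 makes the red protein tdTomato after recombination; neither tamoxifen dosing nor the age, sex and number of mice is given in the labels. The tdTomato+ cells, labelled telocytes (interstitial cells with long thin processes), were sorted and kept for 24 h on CytoSoft plates coated with collagen, whose stiffness was 0.2 kPa (called soft here), 8 kPa (called intermediate) or 64 kPa (called stiff); synovia may have been pooled in a digest, and the series asks how stiffness bears on the turning of such cells into fibroblasts. All groups share the genotype, the sort and the coating. Each level had 1 library, so there is no replicate and no test, and culture-to-culture variation cannot be told apart from stiffness.

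Penk, Nptx1, Ndnf, Slitrk6, Pcdh20 and Nnat are best known from nervous tissue, where they encode secreted peptides and proteins, cell surface adhesion molecules and a small membrane protein. Several are also expressed by mesenchymal cells, so their RNA alone does not mark a neuron. Rerg and Tcim are intracellular regulators with no name or defining role that ties them to neurons. Rerg is also an exception to the direction shared by the others, since it was low in the intermediate library and not in the stiff one. The group is therefore described by its gene names rather than as a neural programme.

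Depth was similar, with 25487064 reads from the soft, 28081600 from the intermediate and 26474862 from the stiff plate. One read was worth 1.03, 0.943 and 1.03 normalized counts in that order, where a normalized count is a gene's reads divided by the library's size factor. Efhd1, the gene that drives CreER, had 10, 5 and 3 reads, of which the stiff library's is at the limit that a count of 0 allows (3 reads). The level of each gene is given in normalized counts, and a log2 ratio is that of 2 libraries after adding a pseudocount of 1, which understates changes of low genes. Intervals are exact 95% intervals (Poisson for a level, Clopper-Pearson for a ratio) and cover counting error only, with no variation between cultures. Amplified reads are not independent molecules, so the intervals may understate even the counting error.

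Of the 8 genes, 7 were lower in the stiff than in the soft library with a log2 ratio of -1 or below, Rerg being the exception; a ratio of at least 1 in size is called past the threshold from here on. The same was true of 0.387% of the 11873 genes whose mean over the libraries reached 50 normalized counts, 46 genes in all. Between the stiff and intermediate libraries 6 of the 8 were lower by as much, against 0.421% of all genes, and Penk, at -0.97, just missed it and passed it, at -1.01, when the libraries were scaled by total reads. Between the intermediate and soft libraries none of the 8 was lower by as much, against 0.00842% of all genes. Because the same ratios chose the genes, these counts describe the choice and carry no evidence beyond it. Counting intervals lay wholly below 0 for 7 of the 8 between stiff and soft (25.9% of all genes) and for 7 between stiff and intermediate (22.0%), and wholly above 0 for 0 (31.3%) and for 1, Rerg (26.3%). Of the 8, 0 were higher by a log2 ratio of at least 1 between stiff and soft (3.22% of all genes), stiff and intermediate (0.825%) or intermediate and soft (0.160%). All 8 genes had a mean of at least 50, but Nnat and Tcim lay under 50 in the stiff library and met the minimum through the other libraries. Fewer cells making a transcript and less of it per cell cannot be told apart in bulk RNA.

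**Figure D1:**
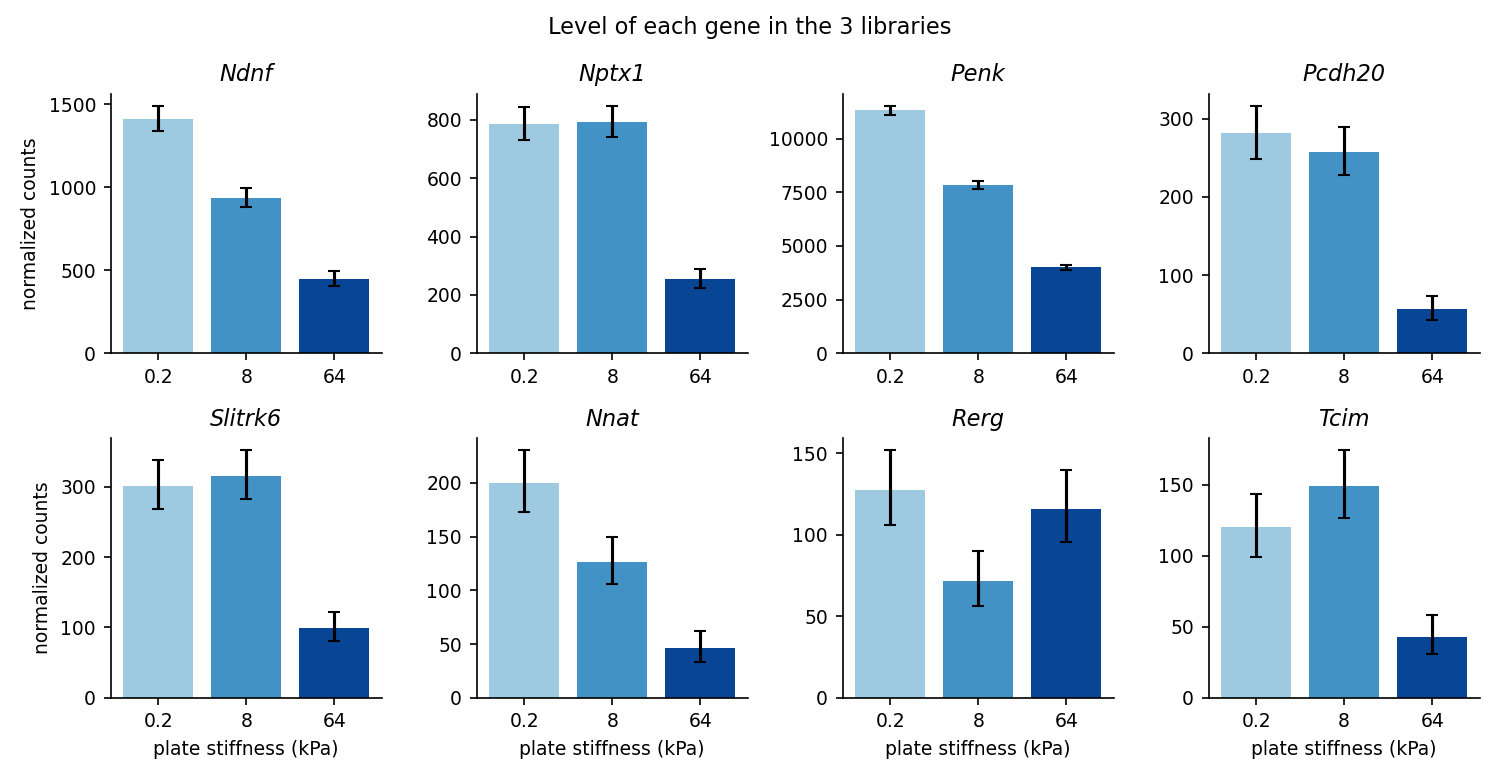
Bars give the normalized counts of each gene (vertical axis, starting at 0, a separate scale per gene) in the libraries from 0.2, 8 and 64 kPa plates (horizontal axis); error bars are 95% Poisson counting intervals, with 1 library per bar. In all genes but Rerg the stiff library is the lowest, as in Penk with 11316, 7845 and 4004 normalized counts.

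Penk, the precursor of the enkephalin opioid peptides, was by far the most abundant of the 8. It lies in GRCm39 on the minus strand of chromosome 4, from 4132722 to 4141856, with 2 exons in its canonical transcript. At 0.2, 8 and 64 kPa Penk measured 11316, 7845 and 4004 normalized counts. Each library was lower than the one on the softer plate, and the counting intervals of the 3 levels were far apart. The stiff to soft log2 ratio was -1.50 (interval -1.55 to -1.45), a level 2.83-fold lower. The intermediate library was already lower than the soft one, at -0.53 (-0.57 to -0.49). Penk made up 77.8% of the summed normalized counts of the 8 genes in the soft and 79.0% in the stiff library, so their sum follows Penk.

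Ndnf encodes neuron-derived neurotrophic factor, a secreted glycoprotein that promotes neuron growth and survival and is also made outside the nervous system. It lies on the plus strand of chromosome 6, from 65648574 to 65689310, with 4 exons. Ndnf measured 1415, 939 and 449 normalized counts at the same stiffnesses. As for Penk, the order followed the stiffness and the counting intervals did not overlap. The log2 ratio was -1.65 (-1.81 to -1.50) between stiff and soft and -0.59 (-0.71 to -0.47) between intermediate and soft.

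Nptx1, neuronal pentraxin 1, is a secreted protein that clusters AMPA-type glutamate receptors at synapses. The gene lies on the minus strand of chromosome 11, from 119428472 to 119438585, and has 5 exons. From soft to stiff Nptx1 measured 787, 793 and 255 normalized counts. Soft and intermediate were within counting error of each other, and only the stiff library was low. Between stiff and soft the log2 ratio was -1.62 (-1.84 to -1.42), and between intermediate and soft it was 0.01 (-0.13 to 0.15), which turned to -0.01 or -0.03 when the libraries were scaled by total reads or by the upper quartile. Nptx1 was the gene whose ratio shifted most when the local median of 200 genes of similar transcript length and GC content was subtracted, to -1.91 between stiff and soft.

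Pcdh20 and Slitrk6 encode cell surface adhesion proteins: Pcdh20 is a non-clustered protocadherin of the cadherin superfamily, and Slitrk6 is a leucine-rich repeat transmembrane protein that shapes neurite growth and synapses. Both lie on the minus strand of chromosome 14, Pcdh20 at 88694835 to 88708832 and Slitrk6 at 110986012 to 110992584, each with 2 exons. Pcdh20 had 274, 273 and 55 reads from soft to stiff, or 280.9, 257.4 and 56.4 normalized counts. Its soft and intermediate levels overlapped within counting error and the stiff library was 4.98-fold lower than the soft one. The log2 ratio of -2.30 (-2.76 to -1.89) was the lowest between stiff and soft among 10623 named genes with a mean of at least 100. Slitrk6 had 294, 335 and 97 reads, or 301.4, 315.8 and 99.5 normalized counts. It showed the same shape as Pcdh20, with soft and intermediate alike within counting error and a log2 ratio of -1.59 (-1.95 to -1.26) between stiff and soft.

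Of the 8 genes 3 matched the RefSeq promoter table used here, and all 3 windows are shown, Pcdh20 and Slitrk6 first as the adhesion genes. They run from 250 bases before to 50 after the RefSeq start site, are taken from RefSeq on GRCm38.p6, and are written 5′ to 3′ in the direction of the gene. They lie at chr14:88471347-88471646 (Pcdh20, minus strand) and chr14:110755100-110755399 (Slitrk6, minus strand). The same windows each matched GRCm39 once, and their start sites lay 0 and 3 bases inside the annotated gene starts. Capitals mark matches to any of the motifs searched.

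Pcdh20: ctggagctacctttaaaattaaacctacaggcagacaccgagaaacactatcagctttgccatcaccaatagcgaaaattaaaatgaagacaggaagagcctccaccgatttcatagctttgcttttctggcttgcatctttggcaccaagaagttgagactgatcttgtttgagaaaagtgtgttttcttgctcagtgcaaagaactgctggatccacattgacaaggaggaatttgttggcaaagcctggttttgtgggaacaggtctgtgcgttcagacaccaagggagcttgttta

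Slitrk6: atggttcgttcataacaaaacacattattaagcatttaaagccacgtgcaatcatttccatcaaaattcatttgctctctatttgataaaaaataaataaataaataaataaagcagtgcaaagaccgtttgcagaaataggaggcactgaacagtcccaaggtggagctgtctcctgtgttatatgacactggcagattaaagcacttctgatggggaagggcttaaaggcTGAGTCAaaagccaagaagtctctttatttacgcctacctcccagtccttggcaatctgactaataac

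The motifs, searched on both strands, were TGANTCA (AP-1), the palindromic cAMP response element, TGCGTCA (a variant of it), GGAATG (TEAD), TATAAA, known as the TATA box, the oestrogen response element and the CArG box bound by serum response factor. A match to one of the first 3 is not also a match to another. The Slitrk6 window held 1 match, the AP-1 sequence TGAGTCA starting 18 bases before the start site, and the Pcdh20 window held none. Of 32851 RefSeq promoter windows of this length, 7.81% held an AP-1 match. The shares were 14.7% for TEAD, 13.6% for the TATA box, 2.12% for the variant element, 1.79% for the cAMP response element, 1.63% for the CArG box and 0.0700% for the oestrogen response element. A match describes letters only and says nothing of binding. Both windows were poor in G and C, at 43.7% for Pcdh20 and 38.3% for Slitrk6, against a median of 52.7% over all windows.

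Nnat encodes neuronatin, a small membrane protein of the endoplasmic reticulum that resembles regulators of the calcium pump, and it is an imprinted gene expressed from the paternal copy. It lies on the plus strand of chromosome 2, from 157401879 to 157404573, with 3 exons. Nnat had 195, 134 and 45 reads from soft to stiff, or 199.9, 126.3 and 46.1 normalized counts. Its level was lower at each step of stiffness, with no overlap of the counting intervals. The log2 ratio was -2.09 (-2.62 to -1.64) between stiff and soft and -0.66 (-0.99 to -0.34) between intermediate and soft. Nnat overlaps Blcap, which is annotated on the opposite strand and has 1745, 1743 and 1857 normalized counts. The strand setting of the counting is not given in the sources used here, so how reads of the overlap were assigned is not known. The stiff to soft log2 ratio of Blcap was 0.09. The promoter window of Nnat, from RefSeq on GRCm38.p6 at chr2:157559828-157560127 on the plus strand, is the third that matched.

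Nnat: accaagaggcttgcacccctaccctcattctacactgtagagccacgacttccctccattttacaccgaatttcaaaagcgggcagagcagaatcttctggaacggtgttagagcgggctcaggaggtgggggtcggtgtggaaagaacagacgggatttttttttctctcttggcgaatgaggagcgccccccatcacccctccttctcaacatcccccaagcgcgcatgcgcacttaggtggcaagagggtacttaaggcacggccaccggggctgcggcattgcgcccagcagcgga

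This window held none of the motifs and has no capitals. It had 17 CpG pairs, against 4 in each of the Pcdh20 and Slitrk6 windows and a median of 7 over all windows. Its start site lay 119 bases inside the annotated gene start in GRCm39. The genes without a match were Ndnf, Nptx1, Penk, Rerg and Tcim.

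Rerg is a small GTPase of the RAS family, first described as an oestrogen-regulated inhibitor of growth, and Tcim is a small protein linked to beta-catenin signalling through its binding of Chibby. Rerg lies on chromosome 6 at 137031817 to 137147495 and Tcim on chromosome 8 at 24927196 to 24929000, both on the minus strand, with 5 exons and 1 exon. Rerg had 124, 76 and 113 reads from soft to stiff, or 127.1, 71.6 and 115.9 normalized counts. Only the intermediate library was low, and soft and stiff were alike within counting error. Its log2 ratio was -0.82 (-1.26 to -0.40) between intermediate and soft, the second lowest among named genes with a mean of at least 100 after the granzyme gene Gzmd, and -0.13 (-0.51 to 0.25) between stiff and soft. Tcim had 117, 158 and 42 reads, or 119.9, 148.9 and 43.1 normalized counts. The intermediate library was the highest for Tcim, but by no more than counting error over the soft one (0.31, -0.04 to 0.67). The stiff library was the lowest, at -1.77 (-2.32 to -1.29) against intermediate and -1.46 (-2.02 to -0.96) against soft.

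**Figure D2:**
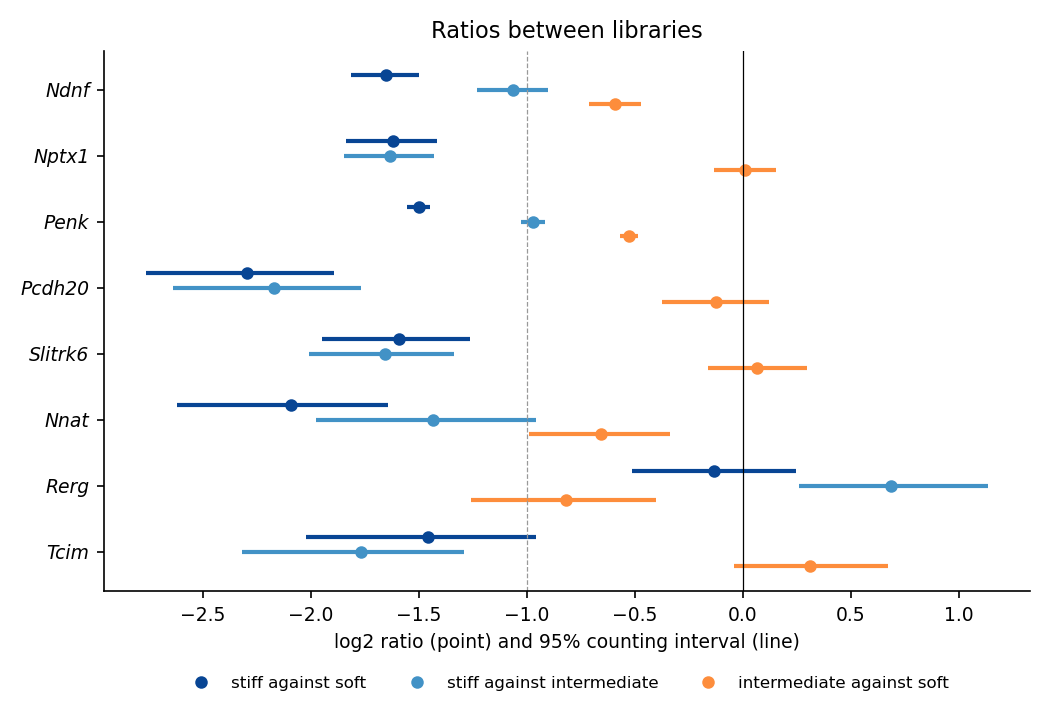
Points give the log2 ratio of each gene in the 3 comparisons (horizontal axis) and lines the 95% counting interval; the dashed line marks -1. The stiff to soft intervals of 7 genes lie below 0, from Pcdh20 at -2.30 to Tcim at -1.46, while that of Rerg crosses 0.

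The 8 genes fell into 3 shapes. Penk, Ndnf and Nnat were lower by at least 0.5 on the log2 scale at each step, which held for 5 of all 11873 genes, or 0.0421%; Aqp5, a water channel, and Hapln1, a hyaluronan link protein, were the remaining pair. For these 3 genes the intermediate library had 35.3% (Penk), 35.7% (Ndnf) and 31.5% (Nnat) of the log2 difference between stiff and soft. The median over the 46 genes lower in stiff than soft was 13.6%. The 3 were grouped by a fall of at least 0.5 at each step, so a share above this median follows from the grouping. Pcdh20, Nptx1, Slitrk6 and Tcim differed mainly between 8 and 64 kPa, with intermediate to soft intervals that included 0. Among the 8, Rerg alone was low at 8 kPa and higher at 64 kPa, by 0.69 (0.26 to 1.13) against intermediate. Intervals below 0 between intermediate and soft were found for 4 of the 8 genes, against 13.5% of all genes.

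**Figure D3:**
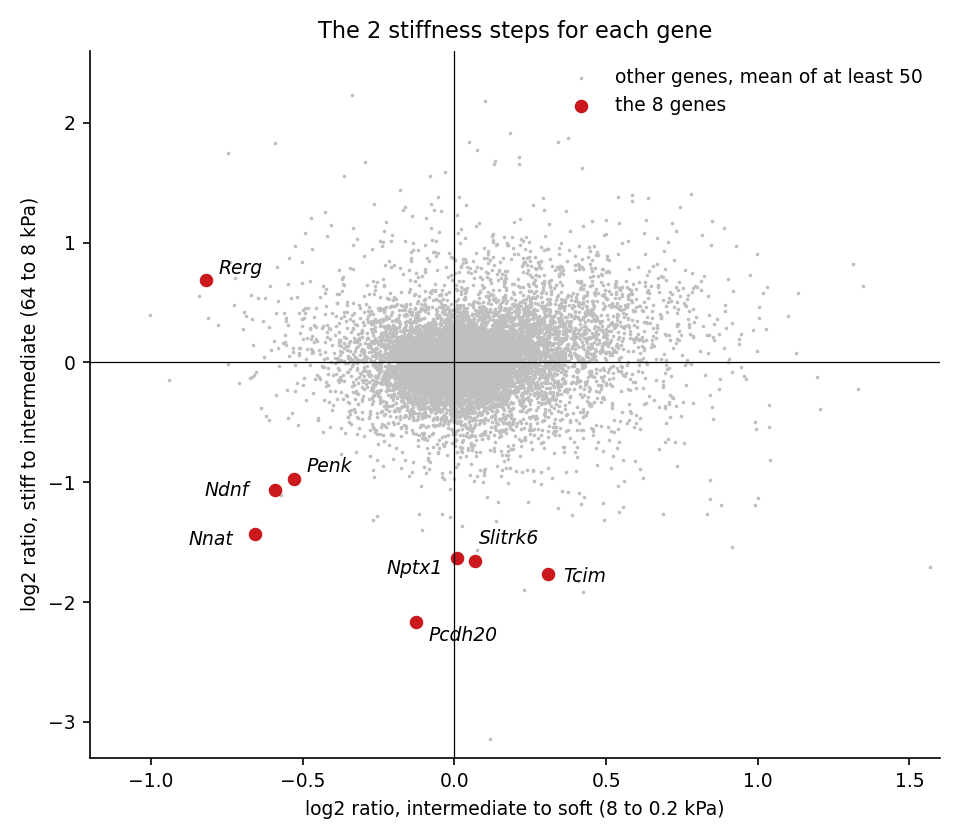
Each point is a gene whose mean reached 50 normalized counts, at its log2 ratio from 0.2 to 8 kPa (horizontal) and from 8 to 64 kPa (vertical); the 8 genes are red and 3 other genes lie outside the axes. Penk, Ndnf and Nnat sit low on both axes, Pcdh20, Nptx1, Slitrk6 and Tcim mainly on the vertical one, and Rerg at -0.82 and 0.69.

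The limits of the choice were as follows. In the stiff to soft order of named genes with a mean of at least 100, 7 of the 8 held ranks 1 to 6 and 8, and Rerg stood at 2943 of 10623. Penk (-1.50) and Tcim (-1.46) lay on either side of Adcy1 (-1.49), a calcium-stimulated adenylyl cyclase that is no member, and the next outside was Baalc (-1.38). In the stiff to intermediate order 5 of the 8 held ranks from 1 to 8, together with the immediate early transcription factors Fosb (-1.71) and Egr3 (-1.54) and again Adcy1 (-1.57), while Ndnf stood at 27, Penk at 38 and Rerg at 10393. In the intermediate to soft order Pgap4 (-0.69) came right after Rerg.

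Likeness of profile was measured as the distance between genes in the plane of the intermediate to soft and stiff to soft log2 ratios, over 3 libraries. The closest pair among the 8 was Nptx1 and Slitrk6, 0.065 apart. Outside the 8, Adcy1 was 0.097 from Slitrk6 and 0.14 from Nptx1, and the transporter Slc16a4 was 0.16 from Nptx1. Aqp5 was 0.035 from Ndnf, 0.19 from Penk and 0.42 from Nnat. Cadm2, a synaptic adhesion protein of the immunoglobulin superfamily, was 0.27 from Penk, 0.33 from Ndnf and 0.72 from Pcdh20, with 125.1, 103.7 and 41.0 normalized counts from soft to stiff. Crabp2, which binds retinoic acid in the cytoplasm, was 0.10 from Tcim, with 75.9, 100.9 and 27.7. For Rerg the nearest were Trp63, Mthfs and Zfp3, at 0.15 each. With 3 libraries such distances describe shape only.

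Per kilobase of canonical transcript, which allows levels of different genes to be set side by side, the order in the soft library began with Penk at 4116 normalized counts per kb. Nnat (144.0), Ndnf (140.1) and Nptx1 (125.1) followed with overlapping counting intervals. Slitrk6 (71.0), Tcim (66.5) and Rerg (53.3) also overlapped in their intervals, and Pcdh20 was lowest at 21.8, having the longest transcript of the 8, 12859 nt. In the stiff library Rerg, at 48.6 per kb, stood next after Penk at 1456, with its interval overlapping those of Ndnf (44.5) and Nptx1 (40.6). The median transcript of the 8 genes was 3496 nt long with 45.5% GC, against 3486 nt and 50.1% over 11630 genes with a match.

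Relatives of the members were counted by list, and the lists were chosen with earlier results of these data known. Between stiff and soft 0.387% of all genes were lower and 3.22% higher past the threshold, so a count of 0 in a list this short does not set it apart from other genes. Among the other non-clustered protocadherins 4 of 11 had a mean of at least 50, which is meant by measured from here on, and their stiff to soft log2 ratios ran from -0.19 (Pcdh7) to 0.76 (Pcdh1), with 0 past the threshold in either direction. Of 25 further synaptic adhesion genes 11 were measured at that level; Cadm2 was lower at -1.59, and Ptprs, a receptor phosphatase that binds Slitrk proteins, was higher at 1.20. The median was 0.30, or -0.01 after subtraction of the length and GC trend. Slitrk5, the only other Slitrk gene with a mean of at least 50, had 64.6, 69.8 and 53.3 normalized counts, while Slitrk1, Slitrk3 and Slitrk4 had no read. Over all 11873 genes the median was 0.005.

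Partners of Penk and Nptx1 in the opioid and pentraxin systems were few among the measured genes. Of 17 other opioid system genes 6 had a mean of at least 50, with ratios from -0.07 to 0.63 and a median of 0.09. The processing enzyme Cpe stood at 1750, 1814 and 1733 normalized counts, and the enkephalin-degrading peptidase Mme at 298.3, 268.7 and 284.1. The prohormone convertases that cleave proenkephalin in neurons were low, with Pcsk1 at 15.4 to 18.5 normalized counts and Pcsk2 at 1 read in the intermediate library and 0 in the others. The opioid receptor genes Oprm1 and Oprk1 had no read in any library. Nptx1's binding partner Nptxr had 331.1, 474.2 and 462.5 normalized counts, and Ptx3, a long pentraxin of innate immunity, had 9858, 10154 and 17653 (0.84, under the threshold). Nptx2, the closest relative of Nptx1, had only 8.20, 16.03 and 30.8, with the stiff library highest.

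Other secreted neural factors were compared in the same way. Of 28 further neurotrophic factors and receptors 16 were measured, with a median of 0.13, or 0.05 with the length and GC trend subtracted, and 0 lower past the threshold. Of 19 listed neuropeptides and granins 3 had a mean of at least 50. The list does not hold Cck, the precursor of cholecystokinin, which was lower in the stiff than in the soft library at 10520.5, 8748 and 4499.9 normalized counts (-1.23), so it does not give a direction for neuropeptides in general. Vgf, a granin-like secreted precursor, went from 107.6 to 166.9 and 312.8 normalized counts (1.53), and Adm, adrenomedullin, from 1628 to 1266 and 3728 (1.19). Npy was at 751.5, 773.0 and 572.2 (-0.39).

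For Nnat, 13 genes of calcium pumping and storage, Blcap included, were listed and 8 measured; the stiff to soft ratios ran from 0.09 to 0.89, with a median of 0.57. That median was 0.26 with the length and GC trend subtracted and 0.14 without a filter on the mean. The pump Atp2a2 had 12542, 12864 and 13793 normalized counts, and the small pump regulators Pln and Sln had no read. For Rerg, 7 of 16 related GTPases were measured, with a median of -0.46, which was -0.35 with the trend subtracted, -0.24 at a mean of at least 10 and -0.01 without a filter. Rasd1, a steroid-inducible GTPase, was lower at 106.6, 72.6 and 52.3 (-1.01), and the others ranged up to 0.08. Esr1, an oestrogen receptor gene, had 203.0, 211.2 and 250.2. Of 7 steroid receptor and cofactor genes 5 were measured, with a median of 0.33, or 0.18 with the trend subtracted, and 0 past the threshold. For Tcim, 13 of 17 beta-catenin partners and feedback genes were measured, with a median of -0.04, or -0.16 with the trend subtracted. Of these 1 was higher past the threshold, Tcf7l2 at 294.2, 434.6 and 605.0 (1.04), and Notum, a secreted enzyme that inactivates Wnt ligands, was at 853.0, 803.2 and 456.3 (-0.90). Cby1, the gene of Chibby, had 491.1, 498.7 and 443.0.

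**Figure D4:**
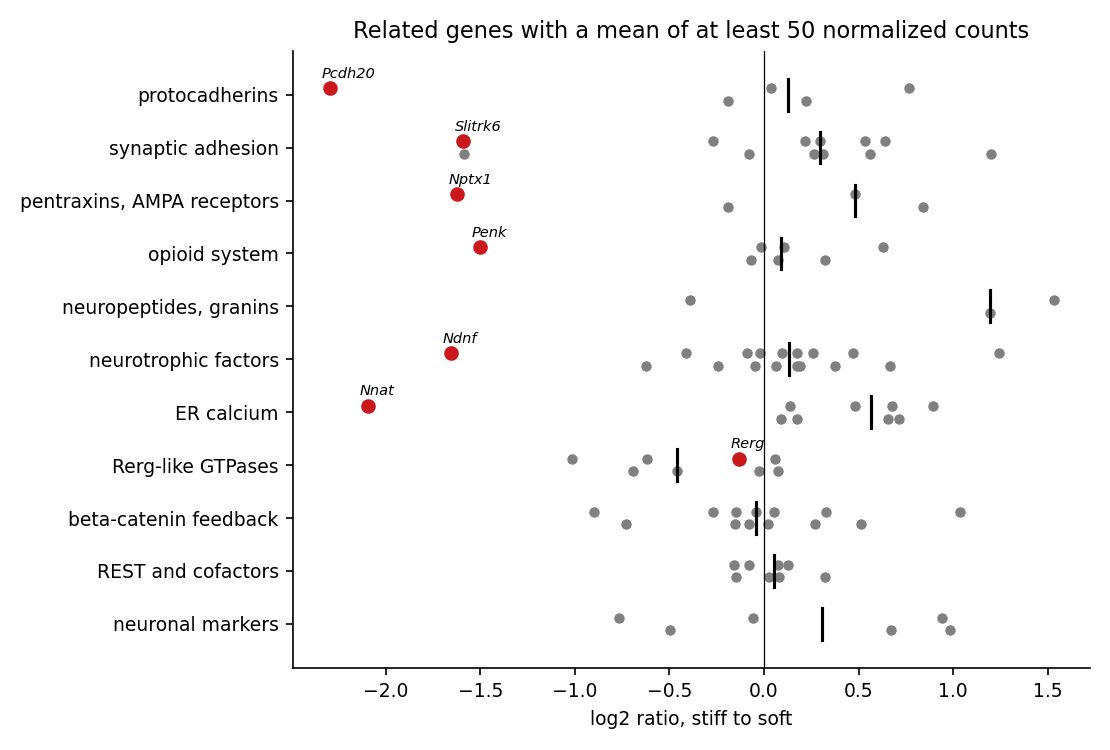
Each grey point is the stiff to soft log2 ratio of a related gene whose mean reached 50 normalized counts, grouped by list (rows); red points are the members and black ticks the median without them. Pcdh20, Slitrk6, Nptx1, Penk, Ndnf and Nnat lie between -2.30 and -1.50 and Rerg at -0.13, while the ticks of the other genes lie between -0.46 and 1.19.

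Expressed genes nearest to the members on the chromosome, 1 on each side, were compared with them. Not all were close: distances ran from 26.2 kb (Endov to Nptx1) to 10563 kb (Mzt1 to Pcdh20), and Spry2 lay 4850 kb from Slitrk6. The 16 neighbours had stiff to soft log2 ratios from -0.27 to 0.94 with a median of 0.12, 11 of them above 0, and 0 of 16 passed the threshold, which over all genes 0.387% passed as lower and 3.22% as higher. With shares this small, 0 of 16 does not set the neighbours apart from other genes. Tnip3, 37.6 kb from Ndnf (-1.65), was at 0.94. Nptx1 lies between Endov (0.31) and Rptor (0.18), and Nnat between Src (0.51) and Ctnnbl1 (0.01). Slitrk5, 920 kb from Slitrk6, was at -0.27.

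**Figure D5:**
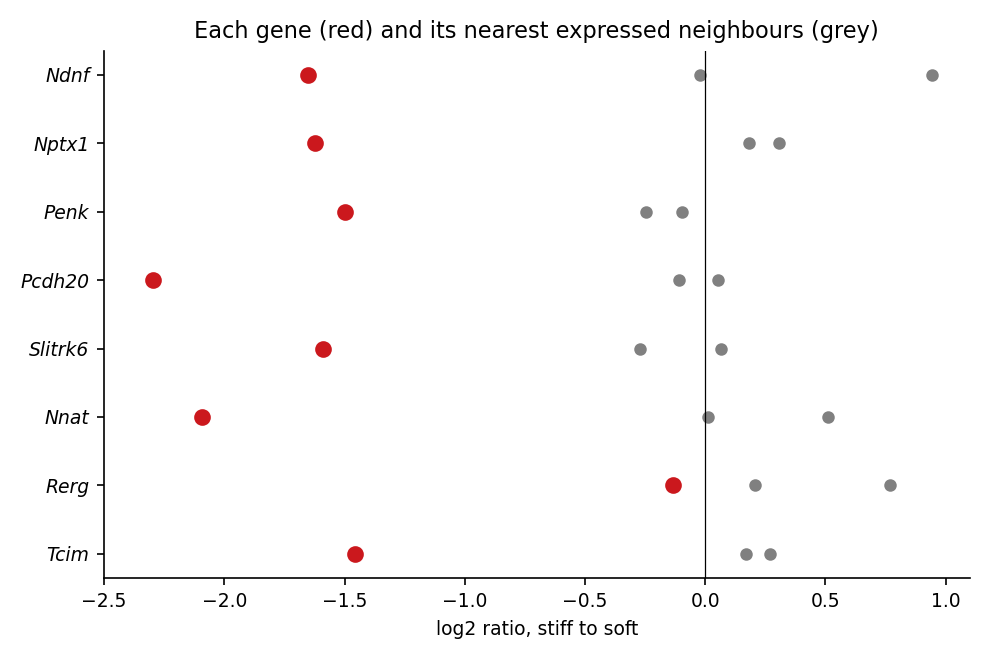
The stiff to soft log2 ratio (horizontal axis) of each member (red) and of its nearest neighbours on the chromosome whose mean reached 50 normalized counts (grey). The neighbours lie between -0.27 and 0.94 and none reaches the ratio of the member beside it.

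Markers of cell types were read beside these results, with the same shares over all genes, 0.387% lower and 3.22% higher past the threshold between stiff and soft, as background. Of 23 neuronal markers, 6 of them genes of single transmitter types, 10 had no read in any library. These were the general markers Rbfox3, Syt1, Elavl3, Dcx and Nefh and the transmitter genes Gad1, Gad2, Slc17a6, Th and Chat. The summed level of the 23 from soft to stiff was 1494, 1580 and 2323 normalized counts. Its largest part was Uchl1, at 721.7, 765.5 and 1151.6 (0.67, 0.54 to 0.81). The 6 measured ones had a median of 0.31 between stiff and soft, a range from -0.77 to 0.98 and 0 past the threshold. That median was 0.67 at a mean of at least 10 and 0 without a filter. Map2, a microtubule protein of dendrites, was lower in the stiff library at 63.6, 61.3 and 36.9 normalized counts (-0.77, -1.42 to -0.17), as was Slc17a7 at 83.0, 59.4 and 58.5 (-0.50, with an interval that reaches 0). Stmn2 was at 196.8, 195.1 and 188.7 (-0.06). The neurofilament gene Nefm, at 11.3, 10.4 and 92.3, and the adhesion gene Ncam1, at 187.6, 236.6 and 371.2 (0.98), had their highest level in the stiff library. The tubulin gene Tubb3 was also highest there, at 203.0, 222.5 and 390.7 (0.94, 0.69 to 1.20). REST, the repressor of neuronal genes, had 569.0, 646.7 and 712.7 normalized counts for Rest, and the 8 genes of the repressor and its cofactors had a median of 0.05, which turned to -0.0049 and -0.0073 when libraries were scaled by total reads and by the upper quartile, and to -0.05 with the length and GC trend subtracted. Of 14 Schwann cell markers 3 were measured and 1 was higher past the threshold, the myelin gene Mbp at 119.9, 155.5 and 280.0 normalized counts (1.22). S100b, a calcium-binding protein of glia, was at 173.3, 154.6 and 113.8 (-0.60, -0.96 to -0.25), and Pmp22 at 4242, 4343 and 4790 (0.18). The defining gene Sox10 had 1.03, 4.71 and 1.03, and the sum, mostly Pmp22, ran from 4678 to 5395.

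Fibroblast markers were all measured, 11 of 11, with summed levels of 231811, 278651 and 332473 normalized counts and stiff to soft ratios from -0.58 (Dpt) to 0.95 (Col1a1). Most of the sum was collagen, with Col1a1 at 78648, 110715 and 151834. Dcn (-0.44), Lum (-0.36) and Pdgfra (-0.20) were lower besides Dpt, and Pdgfrb was at -0.01. Col1a2 (0.28), Col3a1 (0.26), Thy1 (0.37), Pi16 (0.45) and Prg4 (0.62) were higher besides Col1a1. Their median was 0.26, or -0.01 with the length and GC trend subtracted. Of 6 telocyte markers Pdgfra, Cd34 and Foxl1 had a mean of at least 50, while Efhd1, Gli1 and Kit did not. Between stiff and soft Foxl1 was lower at 237.8, 232.8 and 185.6 (-0.36, -0.65 to -0.07) and Cd34 higher at 234.8, 242.3 and 317.9 (0.44, 0.19 to 0.69), and the median of the 3 was -0.20. Macrophage markers were present, 12 of 12 with reads, and their sum was 28778, 35357 and 61227 normalized counts, 2.13-fold higher in the stiff than in the soft library. Of the 11 measured 7 were higher by a log2 ratio of at least 1 between stiff and soft, against 3.22% of all genes. Endothelial markers summed to 57.4, 79.2 and 88.2, with Cldn5 at 0. Mural cell markers, 4 of 7 measured and 0 past the threshold, summed to 2374, 3283 and 3148. Skeletal muscle markers summed to 222, 362 and 695; Myh2 and Myh4 had no read, and most of the sum was Acta1, at 168.1, 297.0 and 622.5 (1.88), while Mylpf was at 46.1, 54.7 and 53.3 (0.20, -0.39 to 0.82). Of 6 cartilage markers 3 were measured, with Col2a1 higher at 1.46 and Col9a1 at 0. The part of any change in cell makeup in the lower levels of the members was not tested. Contractile smooth muscle genes moved the other way, 7 of 9 higher past the threshold between stiff and soft, with Acta2 at 7779, 10080.3 and 36823.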

How the data were processed

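RNA from 3 libraries, 1 per stiffness level, was analysed. The deposited signal values are gene counts that the authors divided by a size factor per library, per the name of the deposited table. Per the submitters' processing notes, the build was GRCm39 and the tools included bcl2fastq 2.20.0, STAR 2.7.9a, Subread 2.0.1 and DESeq2 1.34.0. The 3 files held 1 identical table, and each column carries a sample title. Whole reads were recovered by dividing by the smallest positive value: 100.0% of values came out whole within 0.001 reads. With 1 library per level no count test was run and no p-value is given.

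The members, gene lists and rules were chosen with earlier results of these data known. Named genes are the members, list genes with a mean of at least 50 and a log2 ratio of at least 1, genes ranked next to the members, the 3 nearest profiles of each member, and cell type markers; further list members are given as values. Positions, lengths and GC contents come from GENCODE for GRCm39, matched by symbol (8 of 8 members). Promoters are RefSeq windows on GRCm38.p6, and 3 of 8 members matched. A planned description of proteins was not made, and some list genes and neighbours are not reported here by name. Alternatives were pseudocounts of 0.1 and 10, other minimum means and thresholds, 3 scalings including edgeR 4.0.16 TMM, and subtraction of a length and GC trend over 200 nearest genes. Computations ran in R 4.3.3 and Python 3.11.15 with pandas 2.3.3, numpy 2.4.6 and scipy 1.17.1.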

Additional observations from a re-analysis of the deposited data

How the results depend on the processing

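No paired analysis was possible because each level has 1 library, and for the same reason no replicate could be left out. The count of members lower between stiff and soft stayed at 7 under both pseudocounts, the 3 scalings, the trend subtraction, the smaller minimum means and a log2 ratio of at least 0.5, and was 5 at 1.5. Raising the minimum mean to 200 leaves fewer genes and gave 4 between stiff and soft and 3 in place of 6 between stiff and intermediate, where scaling by total reads gave 7. Lowering the threshold to 0.5 gave 4 in place of 0 between intermediate and soft. Of 135 measured genes of all the lists other than the members, cell type markers included, 24 were past the threshold between stiff and soft (2 lower, against 0.387% of all genes, and 22 higher, against 3.22%, of which 7 were macrophage and 7 contractile genes). Between stiff and intermediate there were 11 (1 lower and 10 higher, against 0.421% and 0.825%), and between intermediate and soft 0 (against 0.00842% and 0.160%); with a mean of at least 10 the counts were, in the same order, 37, 19 and 2, and without a filter 72, 45 and 23, because low genes enter. Of 24 member ratios 3 left their counting interval under an alternative. They were Penk between stiff and soft, at -1.55 and -1.56 when scaled by total reads and by the upper quartile, and Nptx1 with the trend subtracted, at -1.91 between stiff and soft and -0.20 between intermediate and soft. Only the latter ratio changed sign. Of 36 list medians 17 moved by more than 0.1. Depth limits Tcim, Nnat, Pcdh20, Slitrk6 and Rerg most, at 42 to 113 reads in the stiff library.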

Other observations

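The 46 genes lower in the stiff than in the soft library are of mixed kinds, and those named here were chosen after their values had been seen, so they support no theme. Genes of matrix and its turnover were among them: Spp1, osteopontin, had 316083, 262242 and 140702 normalized counts from soft to stiff (-1.17), the matrix metalloproteinase gene Mmp3 had 43770, 33751 and 19886 (-1.14), Mgp, matrix Gla protein, had 18662, 15857 and 8702 (-1.10), and Mmp13 had 18731, 20166 and 9233 (-1.02). Several others are known from nervous tissue. Cck, the precursor of the neuropeptide cholecystokinin, had 10520.5, 8748 and 4499.9 normalized counts from soft to stiff, with a stiff to soft log2 ratio of -1.23 (counting interval -1.28 to -1.17). Megf10, an engulfment receptor of glia and muscle stem cells, stood at 446.0, 453.4 and 175.4 (-1.34, -1.61 to -1.09), so that only the stiff library was low. Adcy1 had 232.7, 245.1 and 82.0 (-1.49, -1.89 to -1.13), and Baalc, a gene of neuroectoderm and blood progenitors, had 1066, 982.3 and 408.1 (-1.38, -1.56 to -1.22). The potassium channel gene Kcnh2 stood at 171.2, 158.4 and 76.9 (-1.14), and Rab27b, which acts in vesicle secretion, at 254.2, 202.7 and 120.0 (-1.08). The tachykinin precursor Tac1, too low for the minimum mean, had 22, 22 and 3 reads.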
